A study of Sus scrofa domesticus with 4 samples.

Results

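The antioxidant set comprised 9 genes, namely the superoxide dismutases SOD1 and SOD2, catalase (CAT), the glutathione peroxidases GPX1, GPX3 and GPX4, thioredoxin (TXN), haem oxygenase 1 (HMOX1) and the metallothionein MT1A. Its members were all probes whose transcript accession on the array led, through the RefSeq gene table, to one of these symbols. This found 31 of the 43603 probes of the array, which belonged to 8 of the 9 genes. No probe was matched to SOD2, the mitochondrial dismutase, and it was dropped. Of the 31 probes, 26 passed the filter on dim signal, and all 26 were well above background in both channels of all 4 arrays. The 5 probes that were not tested belonged to CAT (2), GPX3 (2) and HMOX1 (1), and no gene was lost with them.

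The RNA came from endometrium, the inner lining of the uterus, of 4 mature Large White x Polish Landrace gilts aged 7 to 8 months, on days 15 to 16 of gestation, when the conceptus attaches. Explants 3 mm thick and of about 100 mg were kept in 2 mL of medium 199 for a preincubation of 2 h. They then spent 24 h in medium with orexin B at 10 nM, a neuropeptide also made in reproductive tissues, or with no addition. Both groups shared the gestation stage, the medium, the gas mixture with 95% oxygen and the time in culture. No uncultured tissue was compared, so the levels given are those of cultured explants. Each of the 4 arrays held treated RNA in one dye and untreated RNA in the other. The labels name 4 animals without tying one to an array. P-values of the fit measure the spread between arrays with the same dye assignment, moderated by that of all tested probes. Differences between the dye assignments go into a dye term and not into the error. A log2 ratio above 0 means more RNA in the treated explants.

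These proteins deal with reactive oxygen in successive steps. Superoxide dismutases turn superoxide into hydrogen peroxide, which catalase, glutathione peroxidases and thioredoxin-dependent peroxidases then remove. Haem oxygenase breaks down haem, a source of oxidants, and metallothioneins bind zinc and copper and can scavenge radicals. In the uterus these systems limit oxidant damage while the lining and its vessels are remodelled for pregnancy.

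The share of the 43803 spots well above background was 82.4% to 86.7% in Cy5 on arrays 1, 3 and 4 and 46.8% on array 2, whose scan day differed from that of the others. Cy3 shares were 27.8% to 36.2%. Treated RNA carried Cy5 on arrays 1 and 3 and Cy3 on arrays 2 and 4, by the dye label of each array. A general labelling note can also be read as control RNA in Cy3 on every array. The authors' own treated over untreated ratios have arrays 2 and 4 turned, as the dye labels have it and unlike that reading. Values under that reading are given only as an alternative. They cover the brightest probes whose direction they turn, the GPX1 probes and the difference between the MT1A probes. The tissue markers on the array, namely ACP5, PGR, ESR1, SPP1, STC1 and SLPI, passed the background flag in all 8 channels.

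No member passed the threshold for a difference between treated and untreated explants once p-values were adjusted over all 13783 tested probes. In limma's fit of treatment and dye, 0 of 26 member probes passed an adjusted p of 0.05 (adjusted p = 0.999 for each), against 0% of all tested probes. The probes were split evenly, since 13 had a fitted ratio above 0 and 13 a fitted ratio below 0. Over all tested probes 7319 stood above 0 and 6464 below. With one probe for each gene, the brightest, 4 genes stood above 0 and 4 below, with a median log2 ratio of -0.04, against -0.02 over the brightest probes of all 1637 tested genes and 0.02 over all tested probes. The member median was 0.07 without array 3, and above 0 also with the scanner's ratio (0.02), median centring (0.11) and probe means (0.03). At an unadjusted p under 0.05 in limma's fit there were 5 member probes, 4 of GPX1 and 1 of MT1A, all lower, against 3.59% of all tested probes in either direction and 1.87% lower. The 4 GPX1 probes read one transcript in the same RNA. By the brightest probe of each gene, 2 of 8 genes were under that p, against 5.74% of the 1637 genes. The count of member probes fell to 1 without array 1 and to 1 without array 3, and was 3 without array 2 and 3 without array 4. It was 1 without a dye term and 2 with the scanner's own ratio. The 18 tested probes of the 6 genes other than GPX1 and MT1A ranged in fitted log2 ratio from -0.09 to 0.20. Their 95% intervals, taken from the same fit, reached from -0.57 to 0.64. In explants, fewer cells of a type and less RNA per cell cannot be told apart.

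**Figure D1:**
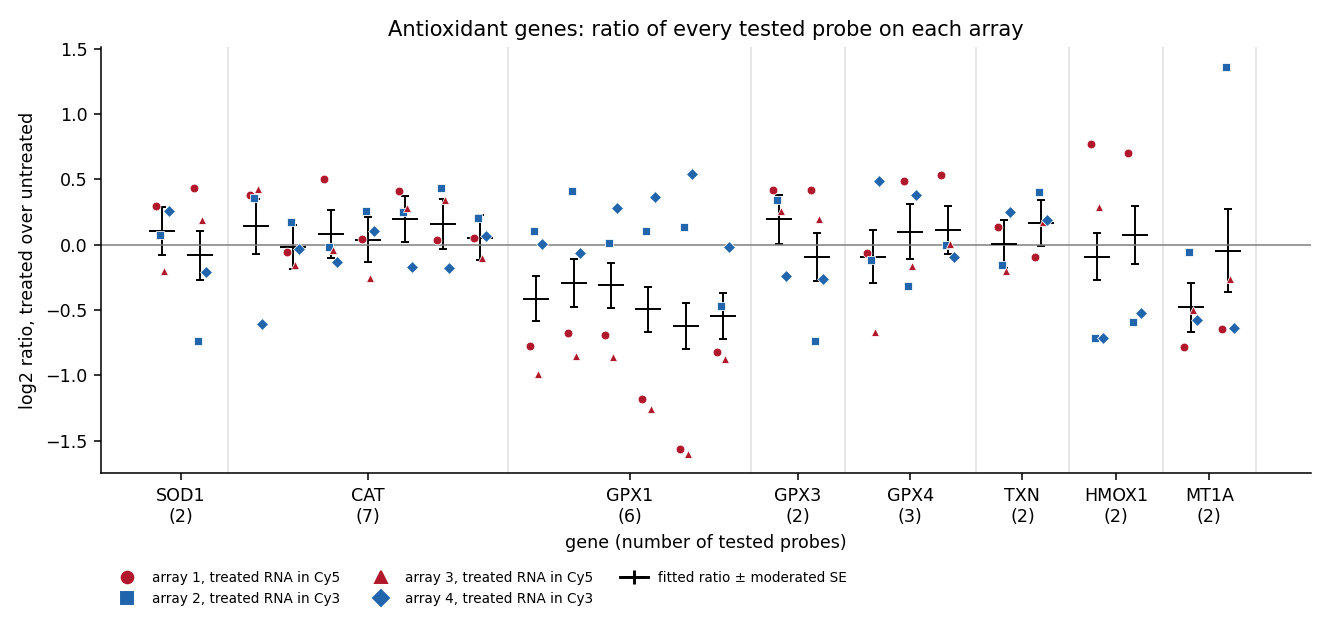
Log2 ratio of treated over untreated RNA for the 26 tested probes, grouped by gene (x axis). Coloured marks are single arrays, red for treated RNA in Cy5 and blue for treated RNA in Cy3, and black bars are the fitted ratio with its moderated standard error. The GPX1 probes on arrays 1 and 3 lie between -1.60 and -0.67, and the second MT1A probe stands at 1.36 on array 2.

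SOD1, the copper and zinc dismutase of the cytosol, had 2 probes with fitted values of opposite sign. On arrays 1 to 4 the brighter probe, A_72_P721668, had log2 ratios of 0.30, 0.07, -0.20 and 0.26. Its fitted value was 0.11 ± 0.18 (moderated SE, n = 4; 95% interval -0.32 to 0.54). The other probe, A_72_P757088, had log2 ratios of 0.44, -0.74, 0.19 and -0.21, so it was positive on both arrays with treated RNA in Cy5 and negative on both with treated RNA in Cy3. It fitted at -0.08 ± 0.19, beside a dye term (Cy5 over Cy3) of 0.39. Read as treated in Cy5 throughout, the brighter probe stood at -0.06. Neither value differed from 0 by more than its error.

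Catalase, which splits hydrogen peroxide in peroxisomes, had 9 probes, of which 7 were tested. Fitted log2 ratios ran from -0.02 to 0.20, with 6 probes above 0 and 1 below. The signs differed between arrays, since 6 of 7 probes were higher on array 1 and 6 of 7 on array 2, but only 3 on array 3 and 2 on array 4. For the brightest probe, A_72_P632481, the log2 ratios were 0.38, 0.36, 0.43 and -0.60, and the fit gave 0.14 ± 0.21 (95% interval -0.36 to 0.64). This probe alone was far from the others on array 4, where the other tested CAT probes lay between -0.18 and 0.11. Without array 2 its fitted log2 ratio was -0.10, and without array 4 it was 0.38. The range of the 7 fitted values, 0.21, was at or below that of 21 of the 27 genes with 7 tested probes, CAT itself included.

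GPX1, the cytosolic selenoenzyme that reduces peroxides with glutathione, was the member with the most negative values. All 6 of its probes were tested and all 6 had a negative fitted log2 ratio, from -0.62 to -0.29. On arrays 1 to 4 the mean of the 6 probes was -0.95, 0.05, -1.07 and 0.18. Low ratios were thus measured on the arrays with treated RNA in Cy5, where 6 of 6 probes were lower on each, and not on those with treated RNA in Cy3, where 1 of 6 was lower on array 2 and 2 of 6 on array 4.

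The brightest GPX1 probe, A_72_P623069, had log2 ratios of -0.78, 0.10, -0.99 and 0.01. Its fitted value was -0.41 ± 0.17 (95% interval -0.82 to -0.01; unadjusted limma p of 0.0458), or 1.33 times lower. The lowest fitted value belonged to A_72_P684140, with log2 ratios of -1.57, 0.13, -1.60 and 0.54. For that probe the fit gave -0.62 ± 0.18 (95% interval -1.04 to -0.21; unadjusted limma p of 0.00951). One GPX1 probe, A_72_P564112, was below 0 on all 4 arrays, at -0.82, -0.47, -0.87 and -0.02, against 3.61% of all tested probes. It fitted at -0.55 ± 0.18 (unadjusted limma p of 0.0181). The remaining probes fitted at -0.49 for A_72_P689751, -0.31 for A_72_P088441 and -0.29 for A_72_P655960, and the intervals of A_72_P088441 and A_72_P655960 include 0. The probes read one transcript in the same RNA, so they are not separate evidence.

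Each GPX1 probe also had a negative dye term, from -0.96 to -0.30, and 5 of the 6 dye terms had an unadjusted limma p under 0.05, against 14.1% of all tested probes. In 5 of the 6 probes the dye term was larger in size than the treatment term, and A_72_P564112 was the exception (-0.30 against -0.55). The separate channels show which signals made the low ratios. In normalised log2 intensity, untreated GPX1 signal of the brightest probe was 17.14 and 17.28 on arrays 1 and 3, and 15.63 and 15.73 on arrays 2 and 4. Treated signal of the same probe was 16.37, 15.74, 16.30 and 15.73 on arrays 1 to 4. The untreated RNA of arrays 1 and 3 therefore stood above the 6 other channel values. This order was chosen after the GPX1 values were seen, so its count in GPX1 is a description. It held for 6 of 6 GPX1 probes, which read one transcript, and for 4.55% of all tested probes. In GPX1 the gap to the next value was 0.43 to 1.47 log2 units. Of the other tested member probes 1 had the same order, MT1A A_72_P079681. The untreated samples of arrays 1 and 3 were both labelled with Cy3 and sat on other arrays than the 2 labelled with Cy5. The labels mention duplicate cultures and do not say which animal or culture an array held, so dye and RNA source cannot be told apart here. Labelled with Cy3, treated RNA was 0.13 to 0.93 log2 units dimmer than with Cy5 in the GPX1 probes (differences of -0.93 to -0.13). Untreated RNA was brighter with Cy3 in these 6 probes, by 1.05 to 2.17.

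The spread of GPX1 was wide for this dataset. Array ratios of its probes had SDs of 0.39 to 1.12, where the median SD over all tested probes was 0.44, and untreated levels had SDs of 0.70 to 1.31, where the median was 0.40. Averaged over its 6 probes and fitted with all 1637 genes, GPX1 stood at -0.45 ± 0.19 (95% interval -0.84 to -0.05), with an adjusted p = 0.564 in limma. Of the 35 genes with 6 tested probes, 9 had all probes below 0 and 17 had all probes on one side, so an even sign over the probes of a gene was common. Read as treated in Cy5 throughout, the 6 probes would stand at -0.96 to -0.30. When each array was centred on its median instead of normalised by loess, the 6 fitted ratios lay between -0.40 and -0.05 relative to all tested probes.

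**Figure D2:**
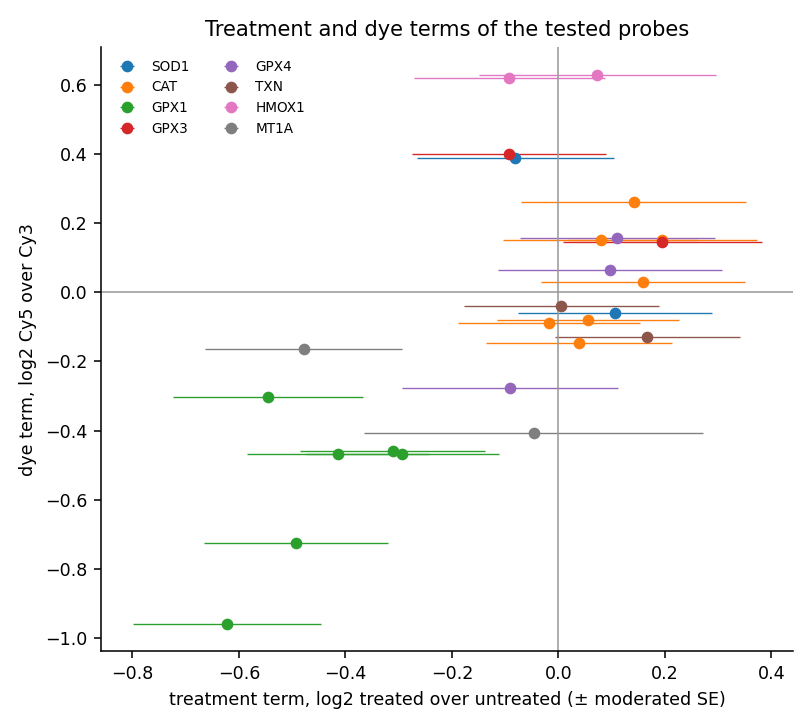
Fitted treatment term (x axis, log2 treated over untreated, with its moderated standard error) against the dye term (y axis, log2 Cy5 over Cy3) for the 26 tested probes, coloured by gene. The 6 GPX1 probes lie at the lower left, below 0 on both axes, while both HMOX1 probes have dye terms of 0.62 and 0.63 and treatment terms near 0.

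GPX3, the secreted plasma glutathione peroxidase, had 4 probes, of which 2 were tested. A_72_P666610 had log2 ratios of 0.42, 0.34, 0.26 and -0.24 on arrays 1 to 4, positive on 3 of 4, and fitted at 0.20 ± 0.19 (95% interval -0.24 to 0.63). With the scanner's own ratio it stood at 0.025, and without array 2 at 0.050. A_72_P440086 had log2 ratios of 0.42, -0.73, 0.20 and -0.26, and fitted at -0.09 ± 0.18 beside a dye term of 0.40. Their array values thus parted on array 2, the array with the low Cy5 signal. A fitted range of 0.29 or more was found in 11.3% of the 382 genes with 2 tested probes.

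GPX4 reduces lipid peroxides in membranes and guards against ferroptosis, an iron-dependent form of cell death. Its 3 probes fitted at -0.09 ± 0.20, 0.10 ± 0.21 and 0.11 ± 0.18, so the gene had no common sign. The brightest, A_72_P388853, had log2 ratios of -0.07, -0.12, -0.67 and 0.48 on arrays 1 to 4. A_72_P589411 had 0.49, -0.31, -0.16 and 0.38. These probes had the same sign on arrays 2, 3 and 4 and opposite signs on array 1. A_72_P646221 had 0.53 on array 1 and values between -0.09 and 0.00 on the others. The sign of the brightest probe turned with the scanner's own ratio, to 0.0066. The mean over the 3 probes was 0.04.

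TXN encodes thioredoxin, the small thiol protein that regenerates peroxiredoxins. Among the brightest probes of the 8 genes, its fitted ratio was the closest to 0. A_72_P177678 had log2 ratios of 0.14, -0.16, -0.20 and 0.25, 2 on each side of 0, and fitted at 0.01 ± 0.18 (95% interval -0.42 to 0.44), or -0.04 with treated RNA taken to be in Cy5 throughout. Its other probe, A_72_P546866, had -0.09, 0.40, 0.17 and 0.19, positive on 3 of 4 arrays, and fitted at 0.17 ± 0.17 (95% interval -0.24 to 0.58). Neither differed from 0 beyond its error.

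HMOX1, the inducible haem oxygenase, had dye terms far larger than its treatment terms. For A_72_P078091 the log2 ratios of treated over untreated were 0.77, -0.72, 0.29 and -0.71 on arrays 1 to 4. Turned to Cy5 over Cy3 these are 0.77, 0.72, 0.29 and 0.71, so Cy5 was the brighter channel on 4 of 4 arrays, whichever RNA it held. The fit gave a treatment term of -0.09 ± 0.18 (95% interval -0.52 to 0.33) and a dye term of 0.62 (unadjusted limma p of 0.0104). The second probe, A_72_P689842, had 0.70, -0.59 and -0.52 on arrays 1, 2 and 4, with its spot on array 3 left out as an outlier. It fitted at 0.07 ± 0.22 from these 3 arrays, with a dye term of 0.63. With treated RNA taken to be in Cy5 on every array, HMOX1 would stand at 0.62 (limma, adjusted p = 0.256). The third HMOX1 probe was above background in Cy5 on 4 arrays and in Cy3 on 0, and was not tested.

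MT1A, a metal-binding protein whose transcription zinc, glucocorticoids and inflammatory signals raise in many tissues, was read by 2 probes. The brighter, A_72_P079681, had log2 ratios of -0.78, -0.05, -0.50 and -0.58, below 0 on 4 of 4 arrays. In normalised log2 intensity, untreated signal was 16.91, 16.26, 16.78 and 16.15 on arrays 1 to 4, and treated signal 16.13, 16.21, 16.28 and 15.58. The untreated signal of arrays 1 and 3 stood above every other channel value, as in GPX1. Both conditions overlap when the arrays are pooled, and the difference is seen within arrays, least on array 2. Its fitted log2 ratio was -0.48 ± 0.19 (95% interval -0.92 to -0.04; unadjusted limma p of 0.0362), or 1.39 times lower, beside a dye term of -0.16. It missed the adjusted threshold like every other probe, and with median centring it stood at -0.29 relative to all tested probes. Averaged over both probes, MT1A stood at -0.26 ± 0.22.

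The second MT1A probe, A_72_P744498, had log2 ratios of -0.65, 1.36, -0.26 and -0.64. It was thus lower on arrays 1, 3 and 4, near the first probe, and higher on array 2. Its untreated signal was 15.93, 14.87, 15.64 and 15.51 and its treated signal 15.29, 16.23, 15.38 and 14.87, so that on array 2 the untreated channel had its lowest value and the treated channel its highest. Raw median Cy3 signal of this probe was 65030 on array 2, where Cy3 held treated RNA, and 16358 to 23719 on the other arrays. Raw Cy5 signal was 57414 on array 2 and 69978 to 104214 on the others. The fit over 4 arrays gave -0.05 ± 0.32 (95% interval -0.80 to 0.70; unadjusted limma p of 0.889), the widest error of the 26 tested probes.

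Set against each other on the same array and in the same dyes, the first MT1A probe minus the second was -0.14, -1.42, -0.24 and 0.06 on arrays 1 to 4. The mean difference was -0.43 ± 0.67 (SD, n = 4), with p = 0.25 in a two-sided exact sign-flip permutation test, which with 4 arrays cannot go below 0.125. Without array 2 the difference was -0.10 ± 0.15 (SD), and the 2 probes averaged -0.62 and -0.52. In the fit without array 2 they stood at -0.61 and -0.55. With the scanner's own ratio and all arrays, the mean difference was -0.22 (exact permutation p = 0.625) and the second probe stood at -0.22. With all arrays, the fitted values of the 2 probes were 0.43 apart, against a median of 0.11 in the 382 genes with 2 tested probes, of which 19 (4.97%, MT1A among them) were at least that far apart. Array 2 alone thus held most of the gap. Why array 2 parted from the others was not tested. In the RefSeq gene table the genes beside MT1A include the metallothionein genes MT1D and MT-2B and unnamed loci, and neither named gene has a matched probe. Metallothionein genes are similar in sequence, so which of them each probe reads was not established here.

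**Figure D3:**
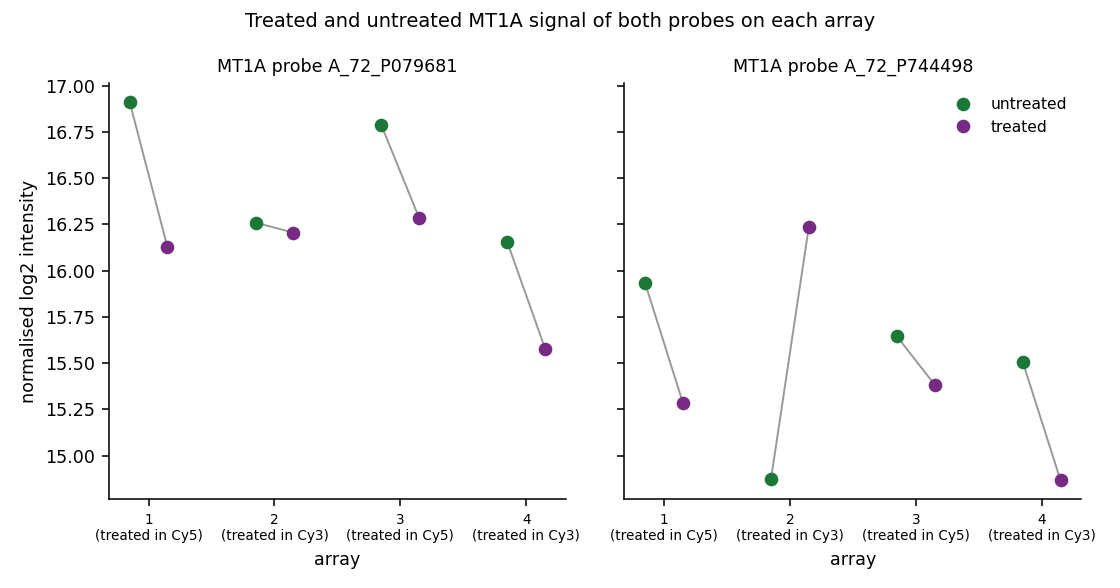
Normalised log2 intensity of untreated (green) and treated (purple) RNA for the 2 MT1A probes on each of the 4 arrays (x axis, with the dye of the treated RNA), joined within an array. The first probe goes down on every array, by the least on array 2, and the second goes down on arrays 1, 3 and 4 and up from 14.87 to 16.23 on array 2.

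Genes whose brightest probe ran most like that of MT1A over the 4 arrays were found by Euclidean distance between log2 ratios among 1603 named genes, where the median distance was 1.36. The nearest were CD274 (0.398), the checkpoint ligand PD-L1, ANGPT2 (0.401), a ligand of the endothelial TIE2 receptor, OAS2 (0.427), an interferon-induced antiviral enzyme, MDM2 (0.456), the ubiquitin ligase of p53, and STX11 (0.467), a syntaxin of immune cells. All 5 had negative ratios on arrays 1, 3 and 4, which follows from choosing them for nearness to MT1A. On array 2 MDM2 (-0.09) and STX11 (-0.17) were below 0, and CD274 (0.14), ANGPT2 (0.04) and OAS2 (0.18) above it. With 4 arrays this likeness is a description of these libraries.

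All 8 genes were well detected in untreated endometrium. Levels of different probes are not comparable, since probes bind with different strength, so each gene is described by its own spread over arrays. Raw untreated signal of the tested members was at least 16.4 times the local background (CAT A_72_P664500 on array 3), and reached 3487 times for MT1A A_72_P079681 on array 2. Brightest-probe levels in untreated RNA, as normalised log2 intensity with SD over 4 arrays, were 15.02 ± 0.27 for SOD1, 11.47 ± 0.24 for CAT and 11.24 ± 0.30 for GPX3. Those of GPX4 were 14.15 ± 0.24, of TXN 15.42 ± 0.25 and of HMOX1 13.04 ± 0.32. These spreads were below the median SD of 0.40 over all tested probes. MT1A had 16.53 ± 0.38 and its second probe 15.49 ± 0.45, and GPX1 stood apart with 16.45 ± 0.89.

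Untreated levels also carried the dye, since untreated RNA was in Cy3 on arrays 1 and 3 and in Cy5 on arrays 2 and 4. The untreated MT1A signal of A_72_P079681 was higher in Cy3 by 0.64 log2 units, and its treated signal was lower in Cy3 (a difference of -0.31). For CAT A_72_P632481 the untreated difference was -0.28, with 11.20 and 11.46 in Cy3 and 11.44 and 11.79 in Cy5, which overlap. The 3 dimmer untested probes of CAT and HMOX1 were above background in Cy5 on 4 of 4 arrays but in Cy3 on at most 1. The 2 untested GPX3 probes were above background in Cy3 on 2 arrays. On the other arrays the untreated or treated RNA they read in Cy3 was not well above background.

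**Figure D4:**
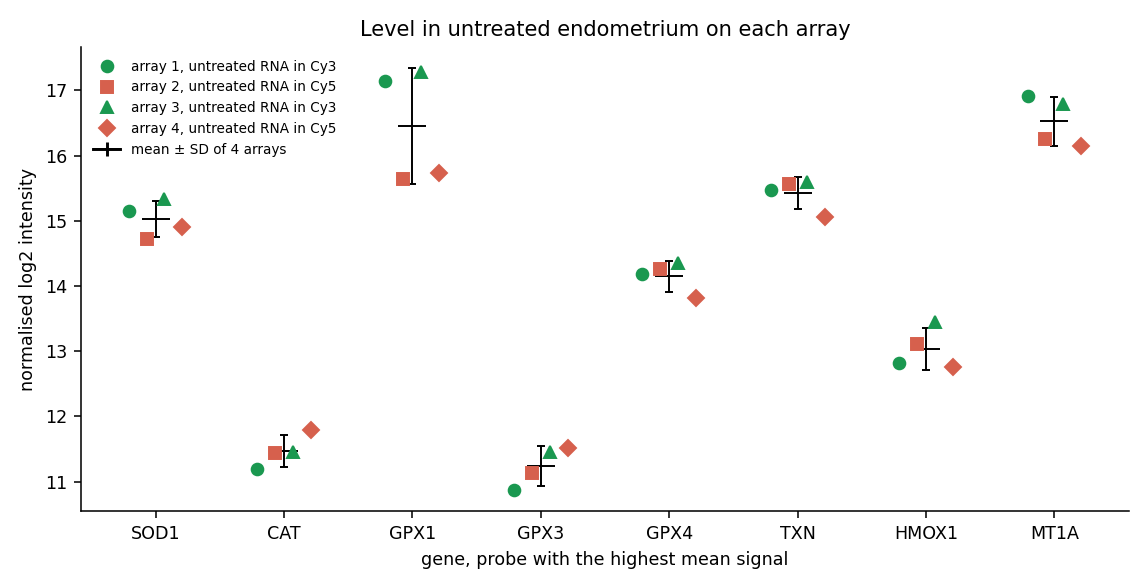
Normalised log2 intensity of untreated RNA on each array for the brightest probe of each gene, with mean ± SD of 4 arrays (black). Green marks are arrays with untreated RNA in Cy3 and orange marks those with it in Cy5, and heights of different probes are not comparable. For GPX1 the Cy3 arrays lie above 17 and the Cy5 arrays below 16.

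Other genes of redox and metal handling were described from lists that held 111 genes, of which 52 were on the array and 34 were tested, with one probe each. Of these 34, 14 had a ratio above 0 and 20 below, with a median of -0.02, and 0 passed the adjusted threshold. Over all tested genes, each by its brightest probe, 718 stood above 0 and 919 below. In limma's fit 1 of the 34 had an unadjusted p under 0.05, against 5.74% of the 1637 genes represented in the same way. This was GP91-PHOX, which makes superoxide as the core of the oxidase of phagocytes, at -1.04 ± 0.22 and lower on 4 of 4 arrays.

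The peroxiredoxin, thioredoxin and glutaredoxin list had 11 tested genes, 6 above and 5 below 0, with a median of 0.04. PRDX6, a peroxiredoxin that also repairs oxidised phospholipids, stood highest at 0.39 ± 0.25, and its 6 probes ranged from 0.25 to 0.40. PRDX3, the mitochondrial peroxiredoxin, stood at 0.20 ± 0.19 with 15 probes between 0.10 and 0.59, and PRDX2 at 0.19 ± 0.23. PRDX6 and PRDX3 were higher on arrays 1, 3 and 4 and lower on array 2 (-0.63 and -0.48). PRDX2 was higher on array 1 only (1.17) and below 0 on arrays 2, 3 and 4 (-0.32, -0.03 and -0.06). At the other end were TXNIP, the inhibitor of thioredoxin, at -0.36 ± 0.20, SELENOS, a selenoprotein of the endoplasmic reticulum, at -0.33 ± 0.21, and GLRX at -0.23 ± 0.18. TXNIP was lower on arrays 1 and 3 (-0.63 and -1.41) and higher on arrays 2 and 4 (0.43 and 0.18), with a dye term of -0.66. Thioredoxin itself, near 0, lay between these partners.

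In the glutathione list 12 of 24 genes were on the array and 6 were tested, 3 on each side of 0 (median 0.03). GSTA4, a transferase for lipid aldehydes, stood at 0.18, the glutathione synthetase GSS at 0.13 and GSTO1 at 0.07. GSTZ1 stood at -0.29 ± 0.19, MGST3 at -0.01 and MGST1 at -0.00. GPX5, a glutathione peroxidase of the epididymis, was on the array and above background in 0 of 8 channels. The only dismutase partner tested was CCS, the copper chaperone of SOD1, at -0.11 ± 0.17.

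In the list for NRF2, haem and iron, 2 of 6 tested genes stood above 0 (median -0.05). NQO1, a quinone reductase and standard NRF2 target, had 0.49 ± 0.25 from 3 arrays, beside a dye term of 0.81 and a second probe at -0.10. Its log2 ratios were 0.99, -0.32 and 1.59 on arrays 1, 2 and 3. FTH1, the ferritin heavy chain, stood at 0.06 and the constitutive haem oxygenase HMOX2 at -0.03. TF, which carries iron, stood at -0.33, KEAP1, the repressor of NRF2, at -0.24 and the ferritin light chain FTL at -0.08. Like HMOX1, FTH1 had a dye term larger than its ratio (0.77).

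The metal list had 4 tested genes, 1 above and 3 below 0 (median -0.06). Below 0 were SLC30A1, the zinc exporter of the cell membrane, at -0.34 ± 0.18, MT3 at -0.11 ± 0.17 and the copper oxidase CP at -0.01, and SLC30A5 stood at 0.07. SLC30A1, which like MT1A is a target of the zinc sensor MTF1, was below 0 on 4 of 4 arrays, at -0.68, -0.26, -0.26 and -0.17 (unadjusted limma p of 0.0960), and its 2 probes fitted at -0.44 and -0.34. Among the 6 tested sources of superoxide and hydrogen peroxide, 4 stood below 0 (median -0.17). Beside GP91-PHOX these were its partner CYBA at -0.38 ± 0.23, the inducible nitric oxide synthase NOS2 at -0.29 and NOS3 at -0.05, and above 0 were MAOA at 0.22 and MAOB at 0.02.

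**Figure D5:**
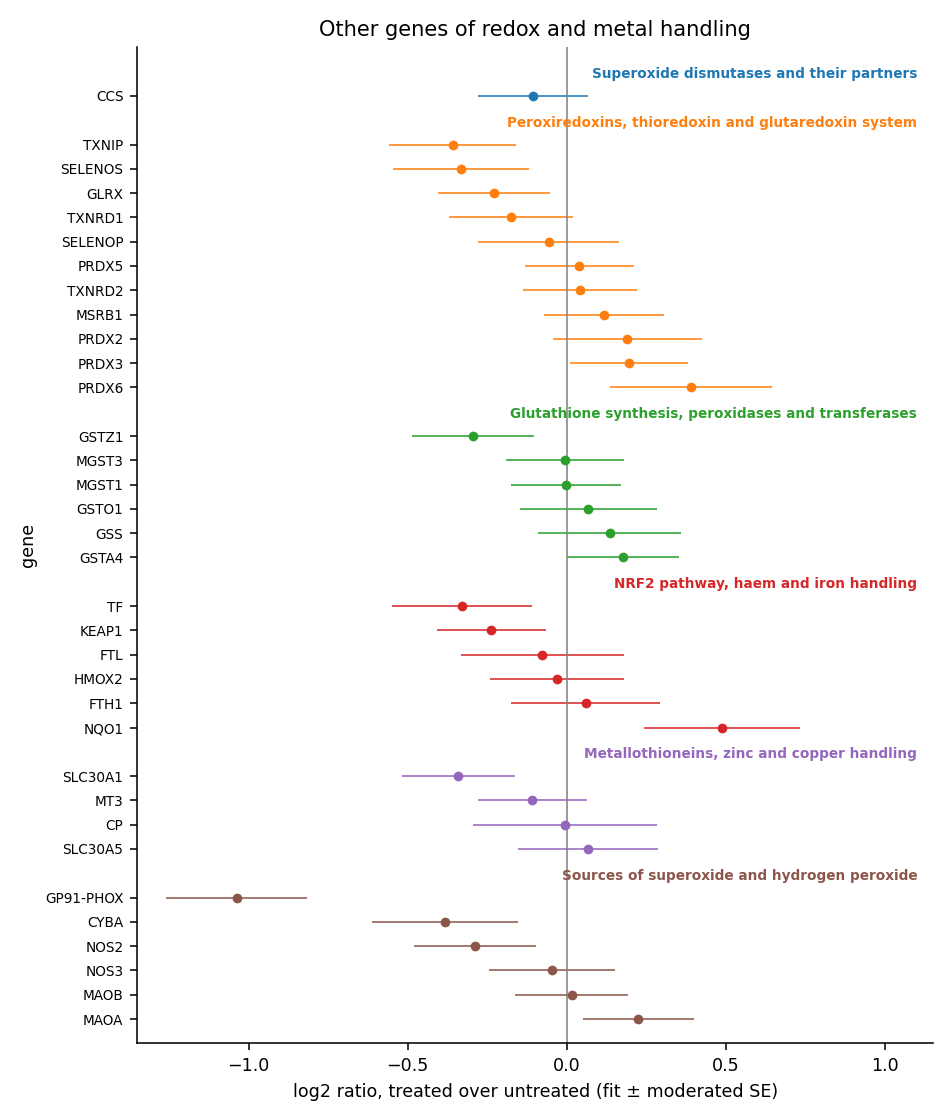
Fitted log2 ratio of treated over untreated RNA (x axis) with its moderated standard error for the 34 tested genes of the redox and metal lists, 1 probe per gene, grouped by list. GP91-PHOX at -1.04 lies lowest, and the other genes lie between -0.38 and 0.49.

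Marker genes of the cell types in an explant also had ratios off 0, and 0 of them passed the adjusted threshold in limma. Of the macrophage list 4 of 7 genes were tested and 3 were lower, at a median of -0.51. On arrays 1 to 4 the list's median was -0.43, -0.17, -0.87 and -0.90. Their summed normalised signal was 12.48 to 13.90 in untreated and 12.05 to 13.07 in treated RNA (log2), ranges that overlap. GP91-PHOX is itself on that list. Medians were -0.26 for 5 epithelial genes (-0.54 to 0.35), -0.34 for 3 endothelial genes and -0.21 for 3 smooth muscle genes. They were -0.27 for 3 T and NK cell genes and 0.20 for 3 fibroblast genes. On single arrays some list medians changed sign. Epithelium had 0.61 and fibroblast -0.67 on array 4, and smooth muscle had 0.66 and endothelium 0.32 on array 1. The T and NK cell median was below 0 on every array. The 3 tested trophoblast genes had a median of -0.15 and ranged from -0.42 to 1.14, and the 6 genes of endometrium in early gestation had a median of -0.04 and ranged from -0.28 to 0.77. No red blood cell gene was on the array. The part of cell composition in the values of GPX1, MT1A and GP91-PHOX was not tested.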

How the data were processed

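The 4 arrays (Agilent, design 026440) were analysed. Deposited spot intensities came from Agilent Feature Extraction 10.7.3.1, per the file headers. The scanner's log10 ratio of Cy5 over Cy3, deposited in the same files, was background-subtracted and dye-normalised by that software, per the file headers. The authors' deposited table gives log2 ratios (treated over untreated), which equal the converted scanner ratio with arrays 2 and 4 turned, uncentred (medians 0.18, 0.29, 0.01 and 0.03).

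Median spot signal and median local background were used, as the planned mean signal was not among the columns read. Background was corrected by normexp (offset 50), arrays were normalised within by loess (weight 0 for control and outlier spots) and spots of a probe averaged (limma 3.58.1, R 4.3.3). Levels are channel intensities after loess and Aquantile scaling. A probe was tested if the well-above-background flag held for 1 condition on all 4 arrays. Treatment and dye terms were fitted with lmFit and eBayes of limma (2 residual and 5.09 prior degrees of freedom). P-values were adjusted by Benjamini-Hochberg over 13783 probes at 0.05. Array accessions were named through the RefSeq table of assembly Sscrofa11.1 (6700 probes of 3029 genes), without coordinates, as the array files name no build. The fit was tested on simulated data. A gene was represented by its brightest tested probe. All members were named, of each pathway list the 3 highest and 3 lowest tested genes, and the 5 genes nearest to MT1A. GPX5 was added after its values were seen. Members and lists were chosen with earlier results of these data known. Alternatives were another offset, the scanner's ratio, median centring, the authors' table, other filters on dim probes, no dye term, probe means, each array left out, and all arrays read as treated in Cy5.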

Additional observations from a re-analysis of the deposited data

Results flagged for a closer look

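Single arrays were set against the other 3 in 58 sets of 4 array values (ratios and untreated levels of the tested members, list medians and the MT1A difference), and 3 stood beyond Dixon's 95% critical value. Chance flags about 1 in 20 such sets. The log2 ratio of CAT probe A_72_P632481 was -0.60 on array 4, far below its other arrays (0.36 to 0.43). For GPX4 probe A_72_P646221 the log2 ratio was 0.53 on array 1, against values between -0.09 and 0.00 on the others. The untreated level of SOD1 probe A_72_P757088 was 14.89 on array 2, against 14.25 to 14.35 on arrays 1, 3 and 4.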

How the results depend on the processing

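No member passed under any setting run, although without array 2 limma called 15 of the 13783 probes and over probe means 2 of the 1637 genes. Leaving out array 1 moved the median of the peroxiredoxin list from 0.04 to -0.068 (range without 1 array -0.068 to 0.065). The same ranges were -0.13 to 0.17 for the glutathione list, -0.26 to 0.11 for the NRF2 and iron list and -0.24 to 0.09 for the metal list, so the side of 0 on which these medians stood was not stable. Leaving out an array gave log2 ratios of -0.019 to 0.23 for SOD1, -0.099 to 0.38 for CAT, -0.24 to 0.060 for GPX4, -0.095 to 0.11 for TXN and -0.21 to 0.029 for HMOX1, each crossing 0. GPX1 (-0.47 to -0.36), MT1A (-0.61 to -0.35) and GPX3 (0.05 to 0.34) kept their sign when an array was left out. For GPX1, each such fit kept at least 1 array with treated RNA in Cy5, where its ratios were low. GPX3 shrank to 0.025 with the scanner's ratio, 0.024 with the authors' table and 0.051 over probe means, and MT1A to -0.29 with median centring and -0.26 over probe means (limma, adjusted p = 0.972). The second MT1A probe ranged from -0.55 without array 2 to 0.45 without array 4, and the difference between the MT1A probes from -0.60 to -0.10. With the scanner's ratio or the authors' table that difference was -0.22, with the second probe at -0.22, and median centring put the second probe at 0.11. The brightest GPX4 probe turned to 0.0066 with the scanner's ratio, to 0.0062 with the authors' table, to 0.022 with median centring relative to all tested probes, and to 0.039 over probe means. TXN turned to -0.00074 with an offset of 10. HMOX1 turned to 0.063 with median centring. That value is also relative to all tested probes, whose own median this setting moved to 0.28. With all arrays read as treated in Cy5, SOD1 stood at -0.059, TXN at -0.040, HMOX1 at 0.62 and the MT1A difference at 0.24. In that reading the dye goes with the treatment on every array, and the cause of the other turns was not tested. Ratios within an array already pair treated with untreated RNA, and no further pairing of arrays was fitted. Relative to the 75th percentile of all probes, the scanner's processed signal put untreated levels of SOD1, GPX3, GPX4 and TXN at 5.97, 2.31, 5.33 and 6.57, above 5.61, 1.82, 4.73 and 6.01. With 4 arrays the moderated errors of member ratios were 0.17 to 0.32 log2 units, and the 5 dimmest probes were not tested because Cy3 signal was not well above background on 2 or more arrays.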

Other observations

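GPX1 was compared with all named genes in the way used for MT1A, a comparison chosen after its values were seen. Of 1603 genes, the brightest probes of PSMA4 (Euclidean distance 0.262) and PSMB10 (0.290), subunits of the proteasome and immunoproteasome, SLA-DQA1 (0.303), a class II histocompatibility chain, TRAF6 (0.312) and JAK1 (0.344), both signalling proteins of cytokine receptors, had array ratios nearest to those of the brightest GPX1 probe, where the median distance was 1.48. PSMA4 had log2 ratios of -0.88, 0.27, -0.83 and 0.08 on arrays 1 to 4, and PSMB10 -0.74, -0.10, -0.81 and 0.10. These genes were chosen for nearness to GPX1, so low ratios on arrays 1 and 3 follow from the choice. They stood between -0.10 and 0.27 on array 2, and between -0.23 (JAK1) and 0.21 (TRAF6) on array 4. These are values of the 4 arrays without a test.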
